A study of Mus musculus with 2 samples.

Results

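Cytosolic ribosomal protein genes were compared in single cells isolated as microglia, between a wild-type (WT) library and a library labelled IRF8KO. Genes were taken by symbol: names beginning Rpl or Rps with a digit, and Rplp0, Rplp1, Rplp2 and Rpsa, without -ps pseudogene symbols and without the Rps6k kinases. Of 86 such genes in the 31053 features, 83 reached at least 10 CPM (counts per 1000000 UMIs of a library) in WT or IRF8KO-labelled cells and are described here. The 83 comprise 46 subunits of the large ribosomal subunit, 31 of the small subunit, 5 paralogs or copies (Rpl7l1, Rpl22l1, Rpl36al, Rps27l and Rps27rt) and Rps19bp1, which matches the name rule but is a binding protein and not a subunit. The gene with the lowest level inside the minimum was Rps19bp1, at 38.2 CPM in WT cells and 32.6 CPM in IRF8KO-labelled cells. The highest outside it was Rpl39l, at 1.73 and 0.79 CPM. Rpl10l and Rpl3l had no unique molecular identifier (UMI, a tag that counts a captured transcript a single time) in either library, which allows up to 0.162 CPM in WT cells and 0.158 CPM in IRF8KO-labelled cells.

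Each library held cells isolated as microglia, the resident macrophages of the brain. The cells were isolated without enzymes, pooled from 3 female C57BL/6 mice aged 3 months and sorted by flow cytometry before droplet capture. The groups differ by the sample titles, WT and IRF8KO, and the genotype entry of the IRF8KO sample reads WT. The labels do not say how or in which cells Irf8 was inactivated, and they name no treatment. With 1 library and 1 pool per group, no value has a replicate and no test of genotype exists. Intervals are 95% intervals of counting error.

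A ribosome has a small subunit that reads the mRNA and a large subunit that joins amino acids, and each ribosomal protein is needed in about equal number. The genes are scattered over the genome, their mRNAs are among the most abundant in most cells, and many of these mRNAs begin with a run of pyrimidines, the 5' terminal oligopyrimidine or TOP motif, through which growth signals adjust their translation. Irf8 encodes a transcription factor of the myeloid lineage that microglia express.

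The data came from 3304 WT cells with 18543061 UMIs and 5007 IRF8KO-labelled cells with 18980263 UMIs, with medians of 3204.5 and 2933 UMIs per cell. The filter required at least 1000 UMIs, at least 500 genes, at most 10% mitochondrial UMIs and under 2% of UMIs in 6 neutrophil genes; this last limit removed 98 cells of the IRF8KO-labelled library and 0 of WT. The libraries shared 5 barcode sequences. Irf8 stood at 794 CPM in WT cells and 669 CPM in IRF8KO-labelled cells, and since the labels do not name the allele, this level checks nothing about the title. All 11 microglia markers were detected in both libraries, at a sum of 32190 CPM in WT cells and 15860 CPM in IRF8KO-labelled cells, but Sall1, a defining microglial transcription factor, stood at 511 and 2.85 CPM and P2ry12, a purinergic receptor, at 3701 and 625 CPM. The 9 border macrophage markers summed to 14.1 and 2852 CPM, with 5 of 9 at 0 in WT, and the 8 neutrophil markers to 2.48 and 54.3 CPM. The 4 B cell markers summed to 313 and 26.3 CPM, and the 6 T and NK cell markers were at 0 in both. The part of these differences in the results below was not tested, except where ranges of microglia-marker share are given.

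Ribosomal protein genes took a larger part of the transcripts in the IRF8KO-labelled library. They held 1285758 UMIs, or 6.93% (6.92 to 6.95) of the total, in WT and 2684183 UMIs, or 14.1% (14.1 to 14.2), in the other, a 2.04-fold difference (log2 1.03, interval 1.025 to 1.031). The median cell carried 222 ribosomal protein UMIs and 2989.5 others in WT, against 414 and 2520 in the IRF8KO-labelled library. Shares are relative to all UMIs of a cell, so more ribosomal protein mRNA and less of other mRNA cannot be told apart from shares alone. Of the 100 most abundant genes by CPM, 25 were ribosomal protein genes in WT and 55 in the other library.

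The difference was present in most cells. The median share per cell was 6.53% in WT (quartiles 5.53 and 7.72) and 13.6% in the IRF8KO-labelled library (11.2 and 16.3). Of the IRF8KO-labelled cells, 82.5% exceeded 10.3%, the 95th percentile in WT, which is a description of the cells of 1 library. Only 75 of 5007 cells, or 1.5%, lay below the WT median. After each cell was thinned to 2000 UMIs, which left out 285 WT and 498 IRF8KO-labelled cells, the medians were 6.55% and 13.85%. The 98 cells over the neutrophil-gene limit, which are not among the cells compared, had a median share of 4.10% (5.48% of their summed UMIs) at a median of 7057.5 UMIs.

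**Figure D1:**
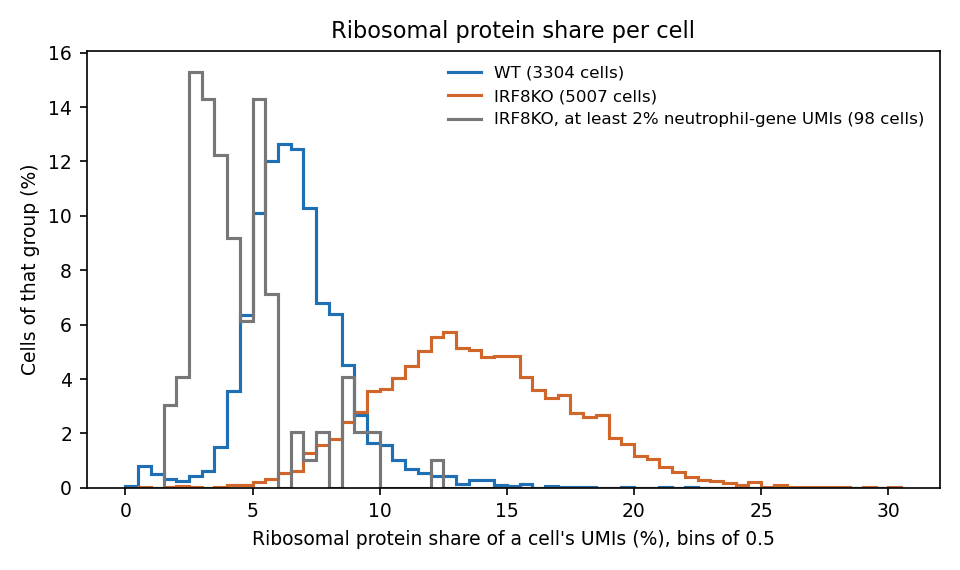
Distribution of the ribosomal protein share of UMIs per cell (x axis, percent, in bins of 0.5) as a percent of the cells of each group (y axis), for WT cells, cells of the library labelled IRF8KO and the cells over the neutrophil-gene limit. The WT distribution centres on 6.53% and the IRF8KO-labelled on 13.6%, and the cells over the neutrophil-gene limit lie mostly below both medians; 1 WT and 2 IRF8KO-labelled cells above 30.5% are not drawn.

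Cells also differed from each other within a library beyond counting. In cells thinned to 2000 UMIs, the SD of the share between cells was 2.01 percentage points in WT and 3.70 in the IRF8KO-labelled library, 3.56 and 4.75 times the SD that drawing 2000 UMIs from a fixed share would give. Relative to the mean, the spread was 0.293 and 0.262. Large-subunit and small-subunit shares moved together across cells, with a Spearman rank correlation of 0.77 over 3019 WT cells and 0.89 over 4509 IRF8KO-labelled cells; the points share libraries and a fixed total, and the correlation is a description. A thinned WT cell held a UMI of a median of 59 of the 83 genes, and an IRF8KO-labelled cell of 72 (70 and 75 without thinning).

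Start sites were examined because the subunit genes differed together between the libraries, while some paralogs differed less. The genes were chosen by name, so the counts of runs describe the set. A part of the start sites in the library difference was not tested. RefSeq sequences (GRCm38.p6) around a transcription start were found for 63 of the 83 genes, and the first listed start was used. A run of at least 7 letters that are C or T on the transcribed strand, reaching within 5 bases of the start, was present at 25 of 63 (39.7%), against 13.5% of all 27025 genes. The same run on the opposite strand was present at 4.76% of the 63 and 14.4% of all genes. The letters CTTTCC stood within 50 bases of the start in 18 of 63 (28.6%) and in 4.67% of all genes, and their reverse complement GGAAAG in 2 of 63 (3.17%) and 4.23%. CTTTCC can lie inside such a run. Windows of 30 bases, 15 before the start and 15 from it on, are given 5' to 3' for genes among the highest and lowest ratios and in the paralog sets, with any such run in capitals.
Rpl38: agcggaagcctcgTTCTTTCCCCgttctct
Rps28: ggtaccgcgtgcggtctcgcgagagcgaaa
Rps24: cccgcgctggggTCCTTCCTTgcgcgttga
Rpl23: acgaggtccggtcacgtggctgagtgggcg
Rpl4: TTCCTTTTCCTgtgggagcagccgggtaga
Rpl7a: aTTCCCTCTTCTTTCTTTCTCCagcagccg
Rps27: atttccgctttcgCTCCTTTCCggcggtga
Rps27rt: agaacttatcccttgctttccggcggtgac
Rps27l: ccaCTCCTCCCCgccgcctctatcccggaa
Rpl36a: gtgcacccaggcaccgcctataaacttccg
Rpl36al: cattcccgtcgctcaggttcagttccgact
Rpl22: ttcgccctgggaaaagcaatagctggccga
Rpl22l1: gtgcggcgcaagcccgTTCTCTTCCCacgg
Rpl7l1: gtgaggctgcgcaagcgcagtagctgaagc
Rps19bp1: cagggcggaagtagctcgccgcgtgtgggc
The windows lie at chr11:114668565-114668594 (+ strand) for Rpl38, chr17:33824548-33824577 (- strand) for Rps28, chr9:64173372-64173401 (+ strand) for Rpl4, chr3:90213634-90213663 (- strand) for Rps27, chr9:114982725-114982754 (- strand) for Rps27rt, chr12:69184053-69184082 (- strand) for Rpl36al and chr17:46782642-46782671 (- strand) for Rpl7l1. The others lie at chr14:24490663-24490692 (+ strand) for Rps24, chr2:26910792-26910821 (+ strand) for Rpl7a, chr9:66946071-66946100 (+ strand) for Rps27l, chrX:134585639-134585668 (+ strand) for Rpl36a, chr11:97782425-97782454 (- strand) for Rpl23, chr4:152325711-152325740 (+ strand) for Rpl22, chr3:28805493-28805522 (+ strand) for Rpl22l1 and chr15:80264292-80264321 (- strand) for Rps19bp1. Each window covers the end of the promoter and the first bases of the annotated transcript. Ratios of genes with and without the run overlapped: 23 subunit genes with it had a median log2 ratio of 0.99 (0.53 to 1.59) and 34 without it 1.07 (0.75 to 1.47). Both the highest gene, Rpl38, and the lowest subunit gene, Rpl4, have a run by this rule. That of Rpl38 spans the annotated start, and that of Rpl4 ends before it, within the 5 bases allowed. A match is a description of these letters at an annotated start, which can differ from the start in use.

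Gene by gene, almost every ribosomal protein gene was higher in the IRF8KO-labelled library. Of the 83, 81 had a ratio above 1, 78 were at least 1.5-fold higher and 43 at least 2-fold higher, while 0 were at least 1.5-fold lower. Among all 8859 genes that met the same minimum, 8.67% were at least 1.5-fold higher, 5.61% at least 2-fold higher, 25.1% higher at any size and 22.7% at least 1.5-fold lower. The median log2 ratio of CPM was 1.01 (quartiles 0.87 and 1.15) over the 83, against -0.28 over all genes compared. All 77 subunit genes were higher, from 0.53 to 1.59, and 76 of them by at least 1.5-fold. In cells with 2 to 3% of UMIs in microglia markers, the number at least 1.5-fold higher was 43 of 83, beside 7.72% of all genes there. WT and IRF8KO-labelled log2 CPM had a Pearson's r of 0.98 over the 83 genes, a description only since genes are no replicates, so the order of levels within the set was much the same. The CPM of the 83 ran from 38.2 to 2612, with a median of 808, in WT and from 32.6 to 4318, with a median of 1616, in the other library.

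**Figure D2:**
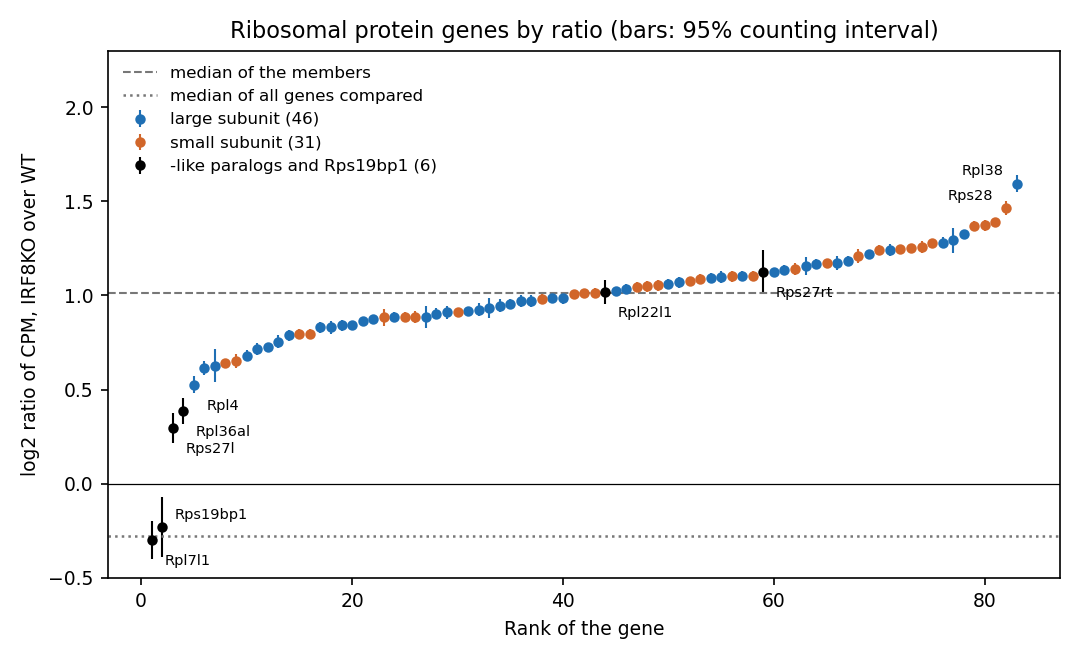
Log2 ratio of CPM, IRF8KO-labelled over WT (y axis), of each of the 83 genes by rank (x axis), with bars for the 95% counting interval; blue marks large-subunit, orange small-subunit genes and black the paralogs and Rps19bp1. Subunit genes lie between 0.53 and 1.59, and 4 of the 6 black points lie below all of them.

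Rpl38, Rps28, Rps24, Rpsa and Rpl23 were among the 6 genes with the highest ratios. Rpl38, a large-subunit protein known for its part in translating selected developmental mRNAs, stood at 298 CPM in WT cells and 901 CPM in IRF8KO-labelled cells, 3.02-fold higher (log2 1.59, interval 1.55 to 1.64). Rps28, a small protein of the small subunit, stood at 403 and 1113 CPM, a log2 ratio of 1.47 (1.427 to 1.503). Both differences were more than 2-fold in every depth range given below. Rps24, a small-subunit gene mutated in Diamond-Blackfan anaemia, had 1612 CPM in WT cells and 4224 CPM in IRF8KO-labelled cells (log2 1.39). Rpsa, a small-subunit protein also called the laminin receptor, had 808 and 2088 CPM (1.37). Rpl23, a large-subunit protein that can bind the p53 regulator MDM2, had 1.33.

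The lowest ratios belonged to Rpl7l1, Rps19bp1, Rps27l, Rpl36al, Rpl4 and Rpl7a, of which the first 4 are not canonical subunit genes. Rpl7l1, an Rpl7-like protein, had 1831 UMIs (98.7 CPM) in WT and 1523 UMIs (80.2 CPM) in the other library, a log2 ratio of -0.30 (-0.40 to -0.20). Rps19bp1, which encodes a binding partner of Rps19 also known as a regulator of SIRT1, stood at 38.2 and 32.6 CPM, -0.23 (-0.39 to -0.07). Under TMM scaling (trimmed mean of M values), which raises the ratio of every gene by 0.25 and the all-gene median to -0.03, Rps19bp1 turned to 0.02 and Rpl7l1 stood at -0.05. Relative to the all-gene median of -0.28, Rpl7l1 and Rps19bp1 were close to an average gene. Rps27l, a p53-responsive paralog of Rps27, stood at 123 and 151 CPM, 0.30 (0.22 to 0.38). These were the 3 genes further than 3 scaled median absolute deviations from the median of the 83, the limits being 0.38 and 1.64. Rpl36al, the autosomal copy of the X-linked Rpl36a, was just inside the lower limit at 0.39 (0.32 to 0.45), with 166 and 216 CPM. Rpl4, a large-subunit protein, had 377 and 543 CPM, 0.53 (0.48 to 0.57). Rpl7a, another large-subunit protein, had 542 and 831 CPM, 0.62 (0.58 to 0.65).

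Ratios differed within some paralog sets and were close in others. Rpl36a had 277 CPM in WT cells and 616 CPM in IRF8KO-labelled cells, a log2 ratio of 1.15, against 0.39 for Rpl36al, and the coding sequences are 88.0% identical. Rpl7 had 793 and 1483 CPM (0.90), against -0.30 for Rpl7l1. Rps27 had 613 and 1351 CPM, a ratio of 1.14. Rps27rt, a copy of Rps27 on chromosome 9, had 46.9 and 102.4 CPM, a ratio of 1.13. The coding sequences of Rps27 and Rps27rt are 100% identical, so UMIs may be assigned to either and their 2 values are uncertain. Rps27l had a ratio of 0.30. Its longest annotated coding sequence, of 318 bases, aligned to the 255 bases of Rps27 at 64.6% identity. Unmatched bases count as differences there, so the unequal lengths lower this value. Rpl22 had 530 and 1005 CPM (0.92), and its paralog Rpl22l1, whose splicing Rpl22 is known to regulate, had 151 and 306 CPM (1.02). Rpl22l1 thus had a ratio close to that of subunit genes, unlike Rpl7l1, Rps27l and Rpl36al. The remaining paralog sets had 1 gene above the minimum each: Rpl39 at 1.17, Rpl10 at 1.10, Rps4x at 1.08 and Rpl3 at 0.68.

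Among the genes with most UMIs, Rplp1, a protein of the stalk that recruits elongation factors, had 2612 CPM in WT cells and 4318 CPM in IRF8KO-labelled cells (log2 0.73). Rpl13, of the large subunit, had 1723 and 3501 CPM (1.02). The subunits differed a little as wholes. The 31 small-subunit genes held 3.02% of all UMIs of WT cells and 6.41% of those of IRF8KO-labelled cells, a log2 ratio of 1.09, and the 46 large-subunit genes 3.85% and 7.64%, a ratio of 0.99. Their gene medians were 1.08 and 0.96, and the median cell held 1.28 large-subunit UMIs per small-subunit UMI in thinned WT cells and 1.19 in the other library. With 1 library each this difference has no replicate error to be set against. The 4 genes on the X chromosome had a median of 1.13.

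Shorter genes had higher ratios on the whole. Coding length was that of the longest complete coding sequence annotated for each gene, which can differ from the form in use. It ran from 141 bases for Rpl41 to 1260 bases for Rpl4. Spearman's rank correlation of coding length with the log2 ratio was -0.39 across the 77 subunit genes. Those up to the median of 471 bases had a median ratio of 1.10 (40 genes) and the longer ones 0.96 (37 genes). Ribosomal protein genes also have many processed copies, and reads that fit several places may be lost or misassigned. Of the 50-base stretches of each gene's transcript, a median of 55.4% recurred in a transcript of another gene in GENCODE M21, with 0% for Rps19bp1 and 98.6% for Rps27. The rank correlation of that percentage with the ratio was -0.20 across the 77 genes and -0.07 across all 83.

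Depth was related to the share in the IRF8KO-labelled library and hardly in WT. Spearman's rank correlation of share with UMIs per cell was 0.08 over 3304 WT cells and 0.35 over 5007 IRF8KO-labelled cells, and 0.04 and 0.25 when depth was counted without ribosomal protein UMIs. In the IRF8KO-labelled library the relation was not one-directional. Its median share was 10.99% in cells of 1000 to 2000 UMIs, 12.8% at 2000 to 3000, 15.4% at 3000 to 5000, 14.2% at 5000 to 10000 and 13.3% above 10000. The WT medians in the same ranges were 5.71%, 6.50%, 6.62%, 6.54% and 6.57%. Each range held the difference between libraries: the log2 ratios of the summed shares were 0.97, 0.94, 1.16, 1.09 and 0.93 from the shallowest range to the deepest. From the shallowest range to the deepest, 75, 73, 79, 79 and 76 of the 83 genes were at least 1.5-fold higher, beside 16.1%, 9.34%, 9.02%, 9.14% and 9.2% of all genes. Rpl38 lay between 1.44 and 1.79 and Rpl7l1 between -0.48 and -0.14 in these ranges. Rps19bp1 was at 0.18 in cells of 2000 to 3000 UMIs and below 0 in the other 4 ranges.

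**Figure D3:**
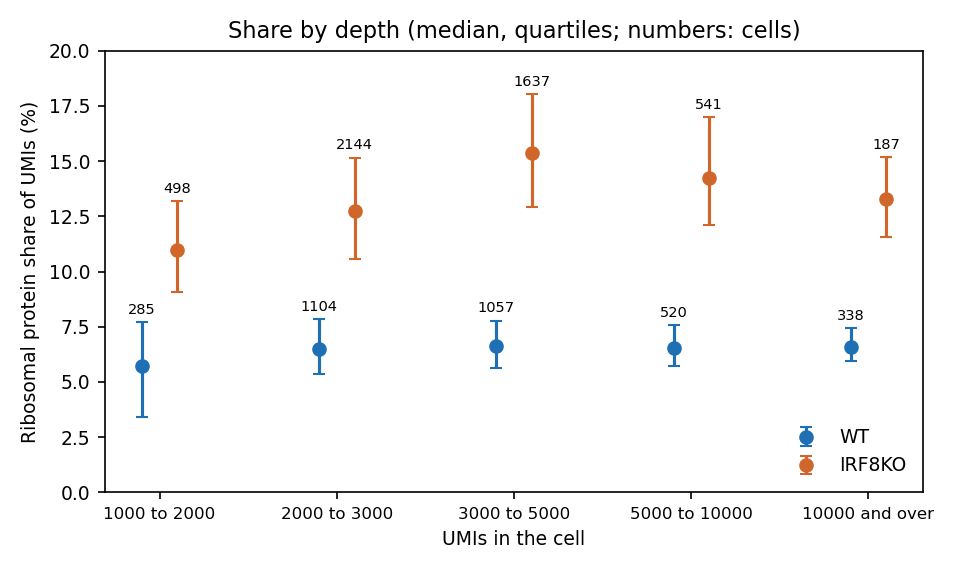
Median ribosomal protein share of UMIs (y axis, percent; bars are quartiles) in cells of rising UMI ranges (x axis) of the WT library and the library labelled IRF8KO, with the number of cells above each point. The WT medians stay between 5.71% and 6.62%, and the IRF8KO-labelled ones are highest, at 15.4%, in cells of 3000 to 5000 UMIs.

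The share also moved with other contents of the cells. In cells thinned to 2000 UMIs, it was lower in cells with more microglia-marker UMIs (rank correlation -0.34 in WT and -0.44 in the IRF8KO-labelled library) and with more Malat1, a nuclear non-coding RNA (-0.29 and -0.48), and higher in cells with more mitochondrial UMIs (0.26 and 0.31). The libraries differ in all of these, with median cell shares of 3.19% and 1.57% for the microglia markers, 3.09% and 2.39% for Malat1 and 2.09% and 3.70% for mitochondrial genes. In ranges of Malat1, the log2 ratio of the summed shares was 1.02 below 2% and 0.98 at 2 to 3%. It was 0.89 at 3 to 4% and 0.80 at 4 to 6%. Over 6% it was 1.19, with 83 WT and 24 IRF8KO-labelled cells and a WT median share of 2.03%. In ranges of mitochondrial share the log2 ratio was 0.88 below 2%, 0.93 at 2 to 4%, 0.94 at 4 to 6% and 1.40 at 6 to 10%. The last range held 37 WT cells with a median ribosomal protein share of 1.75%, against 7.64% in the 125 WT cells at 4 to 6%. The median depth of the 37 cells was 1280 UMIs, so most of them are not in the correlation over thinned cells. Within ranges of microglia-marker share, however, the log2 ratio of the summed shares was smaller. It was 0.63 at 1 to 2%, with 54 WT and 3541 IRF8KO-labelled cells. At 2 to 3% (1089 and 962) it was 0.63, and at 3 to 5% (2101 and 63) it was 0.65. In the range of 2 to 3% the median shares were 7.29% in WT and 11.2% in the other library. Microglia markers are themselves lower in the IRF8KO-labelled library, and beyond these ranges their part in the difference was not tested.

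**Figure D4:**
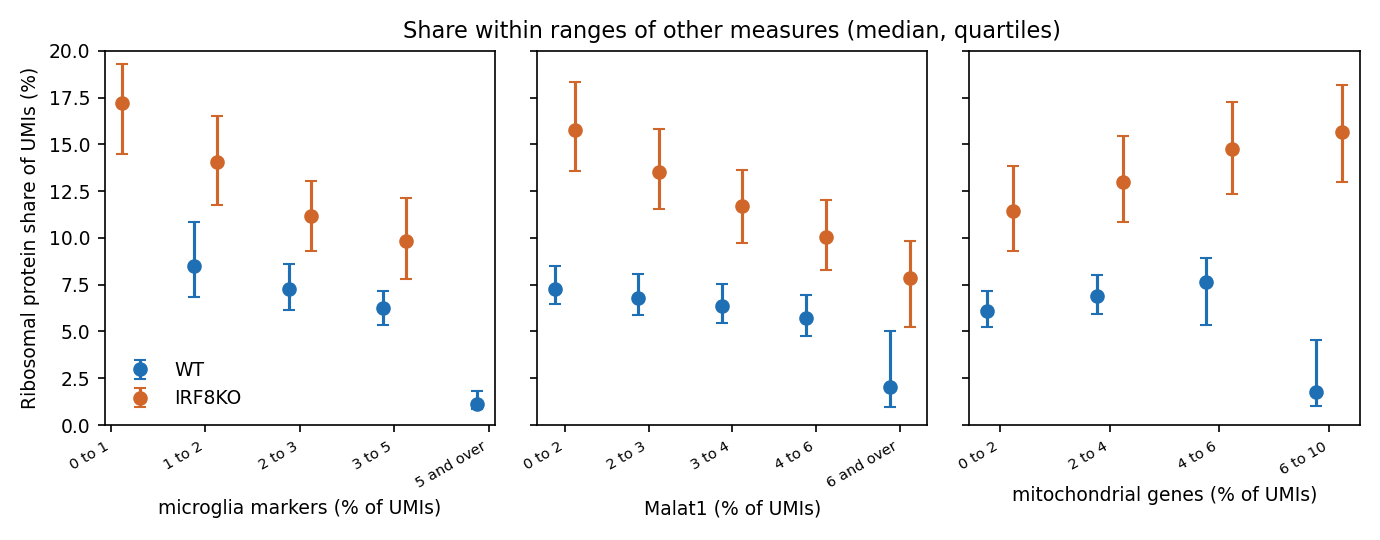
Median ribosomal protein share of UMIs (y axis, percent; bars are quartiles) in cells grouped by the percent of UMIs in microglia markers, Malat1 or mitochondrial genes (x axes), for the WT library and the library labelled IRF8KO; groups under 20 cells are not drawn. At 2 to 3% microglia-marker UMIs the medians are 7.29% and 11.2%, and in each range drawn for both libraries the IRF8KO-labelled median is the higher.

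Apoe, which encodes a lipid carrier, took 0.0478% of UMIs in WT and 8.83% in the IRF8KO-labelled library. Its rank correlation with the ribosomal protein share was 0.19 over 3019 thinned WT cells and 0.01 over 4509 thinned IRF8KO-labelled cells. With the share taken of UMIs other than Apoe, the values were 0.19 and 0.13, and the median share was 14.4% in the 1133 IRF8KO-labelled cells with least Apoe and 15.8% in the 1118 with most. In WT, where most thinned cells held no Apoe UMI, it was 6.4% in 2070 cells with none and 7.34% in the 460 with most. The 36 IRF8KO-labelled cells with under 1% Apoe had a median share of 11.8%, against 6.52% in 3296 such WT cells. The rank correlation with interferon response genes was -0.01, and with border macrophage markers 0.02, in the IRF8KO-labelled library. The 54 IRF8KO-labelled cells with over 1% of UMIs in interferon response genes had a median share of 11.9%, against 13.6% in the other 4953.

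Genes outside the set that most resembled it across cells were much the same in both libraries. Among 1286 genes with at least 100 CPM in both, the 5 with the highest rank correlation to the share in thinned WT cells were Eef1a1 (0.42), Fau (0.41), Tpt1 (0.38), Fth1 (0.32) and Tmsb4x (0.31). In IRF8KO-labelled cells they were Eef1a1 (0.59), Fau (0.56), Tpt1 (0.55), Fth1 (0.48) and Rack1 (0.34). Eef1a1 delivers aminoacyl-tRNA to the ribosome, and Fth1 encodes the ferritin heavy chain. Tmsb4x, which encodes an actin-binding peptide, had a log2 ratio of -0.29, and Fth1 one of 1.30. Of the 83 genes themselves, Rps24 had the highest rank correlation with the rest of the set in both libraries (0.38 and 0.58), and Rps19bp1 (-0.02 and -0.04), Rpl7l1 (-0.01 and 0.01) and Rps27l (0.03 and 0.05) the lowest, at low counts per cell.

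Other parts of the translation machinery did not all follow the subunit genes. Fau, which encodes a ribosomal protein fused to a ubiquitin-like protein, and Rack1, a scaffold on the small subunit, were outside the name rule. Fau had 2115 CPM in WT cells and 4539 CPM in IRF8KO-labelled cells (log2 1.10), and Rack1 588 and 1241 CPM (1.08). The 19 elongation factors and other mRNAs known to carry a TOP motif had a median of 0.55, with 17 higher, 2 lower and 8 at least 1.5-fold higher, beside 25.1% of all genes higher and 8.67% at least 1.5-fold higher. Tpt1, the translationally controlled tumour protein, stood at 2231 and 5874 CPM (1.40), Eef1b2 at 419 and 838 CPM (1.001) and Eef1a1 at 2508 and 4632 CPM (0.88). The list of 19 also holds the initiation factors Eif3f (0.70), Eif3h (0.69), Eif4b (0.66), Eif3k (0.55), Eif3e (0.46), Eif2s3x (0.11) and Eif3l (-0.08). The difference between the 2 lists therefore depends in part on where these genes were placed. The 31 other initiation factors listed, which place the ribosome on the start codon, had a median of -0.16. Of these, 1 was at least 1.5-fold higher and 2 at least 1.5-fold lower, beside 8.67% and 22.7% of all genes. Eif3i had 0.61, Eif2b1 -0.72 and Eif3b -0.65.

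Ribosome assembly, mitochondrial ribosome and growth control genes had medians within 0.18 of the all-gene median of -0.28. The shares of all genes to set beside their counts are again 8.67% at least 1.5-fold higher and 22.7% at least 1.5-fold lower. Of 33 ribosome biogenesis genes, 32 reached the minimum, with a median of -0.18, 1 at least 1.5-fold higher and 3 at least 1.5-fold lower. By ratio of CPM, the 3 largest differences in it were lower. Nop2, an rRNA methyltransferase, had 31.7 CPM in WT cells and 16.2 CPM in IRF8KO-labelled cells (-0.97). Fbl, the fibrillarin methyltransferase, had 69.5 and 41.7 CPM (-0.74), and Nolc1 had -0.67. Nop10, the 1 gene at least 1.5-fold higher, had 75.7 and 114.8 CPM (0.60). Relative to the all-gene median of -0.28, Nop10 lay further away than Nop2. Of 78 mitochondrial ribosomal protein genes, 77 reached the minimum and had a median of -0.10, with 1 at least 1.5-fold higher and 3 lower. Mrpl33 had 0.97, Mrps11 -0.78 and Mrpl44 -0.63. Of 19 growth control genes, 17 reached the minimum, with a median of -0.27, 1 at least 1.5-fold higher and 3 lower. Rptor, the mTORC1 subunit that binds its substrates, had 141 and 41.1 CPM (-1.77), Rps6ka1, a kinase of ribosomal protein S6, -0.99, and Mtor -0.79. Eif4ebp1, the 1 gene at least 1.5-fold higher, had 48.2 and 79.4 CPM (0.72). Relative to the all-gene median, Eif4ebp1 lay further away than Rps6ka1 and Mtor, and Rptor further still. Of 12 snoRNA host genes, 2 are in the feature table used here: Snhg6 had 0.75 and Snhg12 0.16. The sign of these medians depends on the scaling: under TMM the initiation factors stood at 0.09, the biogenesis genes at 0.07, the mitochondrial ribosomal proteins at 0.15 and growth control at -0.02, beside an all-gene median of -0.03. With totals that leave out Apoe and mitochondrial genes, the initiation factors stood at 0.00 and the mitochondrial ribosomal proteins at 0.06, and with totals that leave out the 83 genes, the mitochondrial ribosomal proteins stood at 0.01. Each of these scalings adds a constant above 0 to every log2 ratio. It is 0.25 for TMM, 0.16 without Apoe and mitochondrial genes and 0.12 without the 83 genes. The subunit genes, Fau, Rack1 and the median of the elongation and TOP list were above 0 with totals of all UMIs. Under these scalings they could only rise, so their staying above 0 was fixed in advance.

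**Figure D5:**
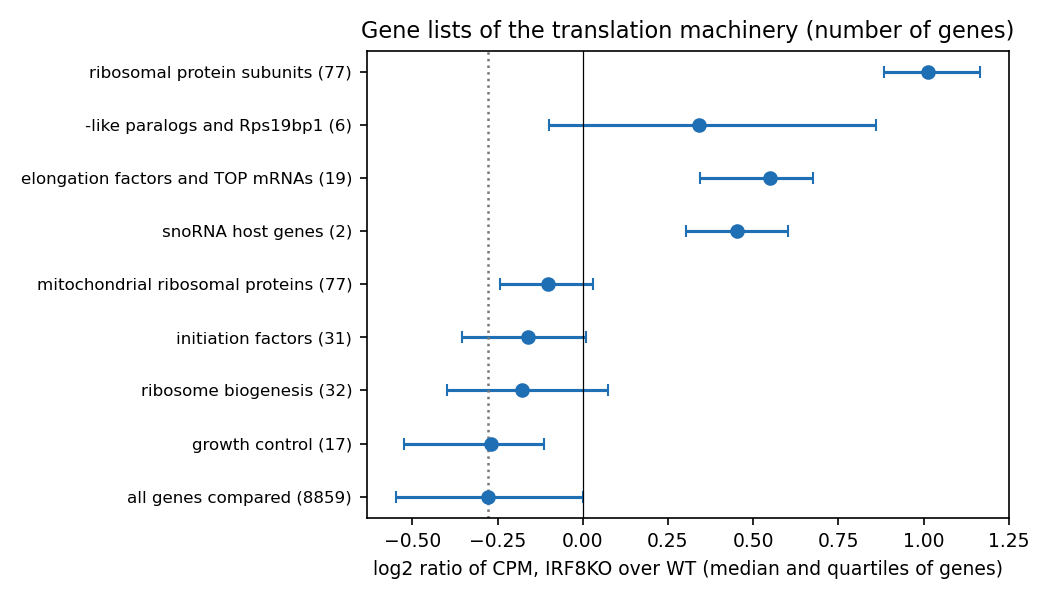
Median log2 ratio of CPM, IRF8KO-labelled over WT (x axis; bars are quartiles over genes), of each gene list of the translation machinery, with the number of genes with at least 10 CPM; the dotted line is the median of all genes compared. Subunit genes stand at 1.01 and the elongation and TOP list at 0.55, while the mitochondrial ribosomal, initiation factor, biogenesis and growth control lists lie between -0.27 and -0.10, near the all-gene median of -0.28 (between -0.02 and 0.15 under TMM scaling, whose all-gene median is -0.03).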

How the data were processed

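The authors deposited raw UMI counts per gene and cell barcode. Per the submitters' processing notes, bcl2fastq, Cell Ranger 3.1 and Scanpy were used with build mm10; per the file headers, the matrices came from software version 3.1.0. How cells were called is not given in the sources used here. Per the labels' protocols, a full-length low-input kit, which is not a droplet method, is also named. The lowest barcodes held 500 and 501 UMIs.

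UMIs were summed over the cells compared and scaled to CPM; a count of 0 was set to 3 counts over the group. No doublet caller was run, and no cell types were named. Intervals are exact 95% Poisson-based conditional binomial (ratios) or Clopper-Pearson (shares) intervals and cover counting error only; ratios and thinning were tested on simulated data. Scripts used Python 3.11.15, numpy 2.4.6, scipy 1.17.1, R 4.3.3 and edgeR 4.0.16 (TMM only). Positions and transcripts came from GENCODE M21 (GRCm38) and start sites from RefSeq; all 83 genes matched by identifier. Named genes were the 6 highest and 6 lowest ratios, those beyond 3 scaled median absolute deviations, the 4 with most UMIs, paralog sets, Rps19bp1, and the 3 largest absolute ratios of each other list, and the 5 genes most like the share per library. Sall1, P2ry12, Malat1 and Apoe are given as checks. Nop10 and Eif4ebp1 are given as the genes at least 1.5-fold higher in their lists. Members and lists were chosen with earlier results of these data known. Alternatives covered scaling, totals, cell filters, depth, thinning, members, minimum and pseudocount. Some items named by these rules are not reported here.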

Additional observations from a re-analysis of the deposited data

How the results depend on the processing

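No paired analysis was possible because each group has 1 library. The direction of the ribosomal protein difference held under each of the alternatives run, and the number of the 83 genes at least 1.5-fold higher was 43 in the cells with 2 to 3% microglia-marker UMIs, an alternative chosen after seeing the data. The log2 ratio of the summed share, 1.03, was 1.28 with TMM factors, 1.19 without Apoe and mitochondrial genes in the total, 1.036 with equal weight for each cell, 0.99 with a stricter cell filter, 0.99 with all kept cells, 1.08 without the 5% of cells with most UMIs, 1.040 after thinning, 1.032 with subunits only and 0.63 in the cells matched on microglia markers. The median ratio over the 83 genes, 1.01, was 1.27 with TMM, 1.13 with totals without these genes, 1.18 without Apoe and mitochondrial genes, 0.98 with the stricter filter, 0.98 with all kept cells, 1.05 without the deepest cells and 0.61 in the matched cells, where it lay 0.85 above the all-gene median. The median share per cell was 6.67% in WT and 15.6% in the IRF8KO-labelled library without Apoe and mitochondrial genes, 6.46% in WT with subunits only, and in the IRF8KO-labelled library 13.4% with the stricter filter and 13.85% after thinning. The rank correlation of share with depth in WT was 0.026 with the stricter filter, 0.023 in cells of 2000 to 4000 UMIs and 0.040 with depth counted without these genes. In the IRF8KO-labelled library it was 0.27 with the stricter filter, 0.29 with all kept cells, 0.39 without the deepest cells and 0.25 with depth counted without these genes. Of the values of named genes, 159 moved beyond their counting interval, 190 did not and 1 reversed: Rps19bp1, at 0.0242 with TMM. Adding pseudogenes, taking subunits only or dropping the minimum CPM changes only which genes are in the set. These settings cannot move the ratio of a named gene, so their values are among the 190 by construction. By construction, TMM scaling adds a constant of 0.25 to each gene's log2 ratio. Totals that leave out the 83 genes likewise add 0.12, and totals that leave out Apoe and mitochondrial genes add 0.16. These constants are above 0, so the direction of the ribosomal protein difference held under these scalings by construction. Causes of the other changes were not tested. With 1 library per group, capture, handling and genotype cannot be told apart, and the counting intervals do not cover the spread between animals.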

Other observations

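A small number of WT cells had a low share of ribosomal protein transcripts. Below a share of 2%, a limit chosen after the values were seen, lay 57 of 3304 WT cells (1.73%) and 3 of 5007 IRF8KO-labelled cells (0.0599%). The 57 WT cells held 1000 to 2530 UMIs each, with a median of 1265. Their median share was 0.994%, with a median of 12 ribosomal protein UMIs, against 6.53% over all WT cells. Their median mitochondrial share was 4.27%, against 2.09% over all WT cells. Malat1 took 6.58% of their UMIs at the median, against 3.09%, and the 11 microglia markers 5.85%, against 3.19%.

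Barcodes left out by the cell filter also differed. In the 200 WT barcodes, ribosomal protein genes took 1.98% of 163086 UMIs, and in the 198 IRF8KO-labelled barcodes 6.70% of 174864 UMIs. In the 98 cells over the neutrophil-gene limit, the 83 genes had a median log2 ratio of -0.33 to WT cells, and 0 were at least 1.5-fold higher than in WT. All 9169 genes with at least 10 CPM in these cells or in WT had a median of -1.10 in that comparison, and 14.1% were at least 1.5-fold higher.

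Of the -ps symbols of the same pattern, Rpl10-ps3 had most UMIs, 495 in WT and 977 in the IRF8KO-labelled library, a log2 ratio of 0.95. Rpl9-ps6 had 185 and 396 UMIs (1.06).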
